A study of Saccharomyces cerevisiae with 6 samples.

Results

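The 4 arrays labelled A100 or B100 were set against the 2 arrays labelled 10, out of 6 arrays in all, to describe how the budding yeast samples of the 2 sets differed from each other, whether or not they had been given the compound. The sets were taken from the numbers in the sample titles, and the labels do not say whether they were separate experiments. The first set is called the 100-series here and the second the 10-series. The 100-series holds 2 treated arrays (A100 and B100, azinomycin B at 100 µg/ml) and 2 control arrays (A100 and B100), and the 10-series holds 1 treated array (azinomycin B at 10 µg/ml) and 1 control array. Azinomycin B is a natural product that cross-links DNA, and the labels give 10 µg/ml as the median effective dose (ED50) against this yeast. All cultures were of Saccharomyces cerevisiae in YPD, a rich medium with glucose, at 30 °C and 250 rpm, and the treated ones received the compound in a little ethanol at an optical density of 1.0 and were collected 6 h later. The labels name no strain, give no optical density at collection, mention no ethanol in the controls and leave it unsaid whether each array had a culture of its own, so the p-values cover the scatter among these arrays and no more. In the treated arrays the series and the dose change together and cannot be told apart, whereas the control arrays differ, as far as the labels say, by the series alone.

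Budding yeast ties the making of ribosomes to growth: when nutrients or temperature change, the nucleolar factors that assemble ribosomes and the ribosomal proteins are turned down together, and chaperones, reserve carbohydrate enzymes and other stress genes are turned up. Chaperone genes follow the heat shock factor Hsf1 and many other stress genes follow Msn2 and Msn4, while the phosphate transporters follow Pho4, which enters the nucleus when phosphate is short. In YPD cultures the glucose is used first, and the genes for using ethanol and acetate, which glucose represses, come on as it runs out.

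The signals are MAS5 intensities in arbitrary units. Signals of the 100-series are listed in the order treated A100, treated B100, control A100, control B100, and those of the 10-series in the order treated, control. Differences are 100-series minus 10-series on the log2(signal + 16) scale, from a limma fit with treatment as a covariate, and a gene is called higher or lower at an adjusted p under 0.05. Array medians ran from 112.0 to 143.9 and 15.2% to 18.2% of signals were under 16. The 3' to 5' ratio of ACT1, which grows as RNA degrades, was 2.09, 1.44, 1.69 and 2.05 in the 100-series, against 1.78 and 1.85 in the 10-series, so the 10-series lay inside the range of the 100-series. The 2 arrays of the 10-series correlated at r = 0.970 across 6956 probe sets, and the 3 pairs among the treated B100 array and the controls of the 100-series at 0.979 to 0.980. Pairs between the series correlated at 0.891 to 0.919. The treated A100 array stood apart from the rest of its own series (r = 0.906 to 0.932), so lists are also given without it. It was picked for this by its own values, and leaving it out also takes its scatter out of the spread used by the test. Further calls made without it are therefore no separate support. On the treated A100 array, 28 of the 748 tested probe sets numbered 7600 to 8500 (3.74%) lay at least 4-fold below all other arrays, against 5 of the 6208 others (0.0805%). The alpha-cell markers MF(ALPHA)1, with signals of 5851 to 7612 in the 100-series and 8771 and 10916 in the 10-series, and SAG1 (3525 to 4273, against 3953 and 4301) were high throughout, and the a-cell protease BAR1 (13.3 to 95.5, against 71.6 and 33.9) was low. The a-factor gene MFA1 had 540 on the treated A100 array and 19.3 to 65.3 on the other 100-series arrays, against 136 and 46.1. For the 4 tested a-cell genes the median, as a deviation from each gene's mean, moved between arrays. It was 0.702, -0.0804, -0.597 and -0.594 in the 100-series, against 0.68 and -0.251 in the 10-series. For the 4 tested alpha-cell genes it lay between -0.172 and 0.178. The labels give no mating type. All 4 signals of MF(ALPHA)1 in the 100-series lay below both of the 10-series, a difference of -0.57 that did not pass the test (adjusted p = 0.082) but did under quantile normalization (-0.64, adjusted p = 0.036) and without the treated A100 array (-0.55, adjusted p = 0.043).

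Of 1051 genes in the 34 lists used below, 961 were tested; the others had no probe set with a name of its own or lay among the 25% of probe sets with the lowest mean over all arrays. Over both arms, 360 of the 6956 probe sets were called higher in the 100-series (5.18%) and 360 lower (5.18%), and among the 5173 genes with a name of their own 290 were called higher (5.61%) and 290 lower (5.61%). The shares of named genes are the background for the counts with all arrays below. Of the 720 calls, 287 were at least 2-fold higher and 305 at least 2-fold lower, and the groups did not overlap at 718. Across all named genes, the 4 arrays of the 100-series lay above both arrays of the 10-series at 1060 (20.5%) and below both at 1048 (20.3%), and the median difference was -0.0022. The number of calls turned on single arrays. It was 2028 without the treated A100 array and 240 without the treated B100 array, 21 without the A100 control and 59 without the B100 control. Without the 10-series control it was 5 and without the 10-series treated array 0, both with the remaining 10-series array assumed to vary like the others. Among named genes 740 (14.4%) were called higher and 865 (16.8%) lower without the treated A100 array, the background for the counts without it below. Without the treated B100 array these shares were 2.17% and 1.68%. They were 0.213% and 0.136% without the A100 control, and 0.64% and 0.31% without the B100 control. Low list counts without these arrays are to be read against these shares, since calls were lost among all genes. Of the calls that could be tested in these fits, each kept its direction in every fit. For calls whose groups did not overlap this was fixed in advance.

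**Figure D1:**
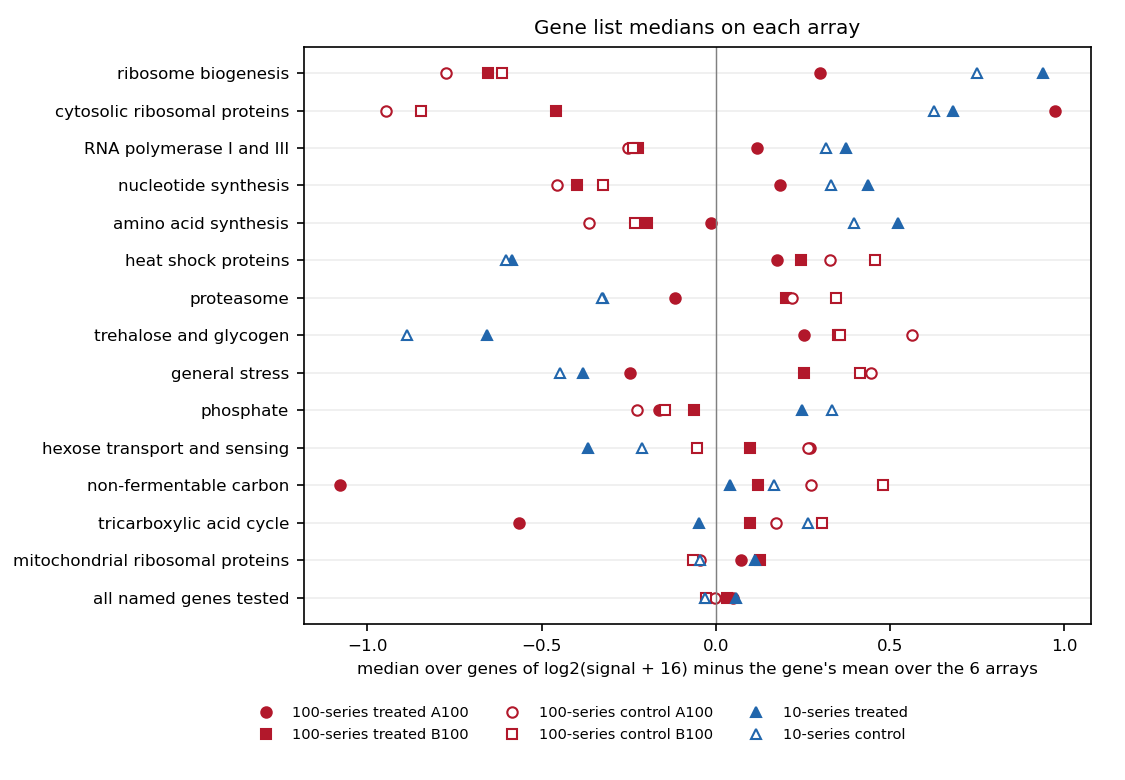
Median over the tested genes of each list, on each of the 6 arrays, of log2(signal + 16) minus the gene's mean over the arrays (x axis, log2 units); red marks are the 100-series and blue marks the 10-series, filled when treated. For ribosome biogenesis the 10-series stands at 0.940 and 0.751, above all 4 arrays of the 100-series (0.299 to -0.774), and for trehalose and glycogen genes it stands at -0.657 and -0.887, below all 4 (0.253 to 0.562).

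Among called genes whose groups did not overlap, the largest differences above the 10-series were those of SSA4, ZPR1, SSA2, RCK1 and BTN2. The cytosolic Hsp70 chaperone gene SSA4, which is nearly silent without heat or protein damage, had signals of 6207, 7690, 7876 and 8906 in the 100-series, against 255 and 661 in the 10-series. The groups lay far apart, and the difference was 4.15 (SE 0.27, adjusted p = 0.0020). ZPR1, a zinc finger protein that helps fold a translation elongation factor, had 2752, 2584, 2218 and 2313 in the 100-series, against 126 and 199 in the 10-series, a difference of 3.83. SSA2, another cytosolic Hsp70 gene, had 5042, 3252, 4108 and 3746, against 244 and 377 in the 10-series, a difference of 3.65. SSA1, its near-identical copy, named here after its values were seen, had 9442, 12890, 13959 and 19081 in the 100-series, against 11247 and 15181 in the 10-series, so the groups overlapped (difference 0.04, adjusted p = 0.923). Transcripts so alike can share probes, and which of them each of the 2 probe sets read is uncertain. BTN2 and CUR1, which sort misfolded proteins into deposits, differed by 3.44 and 3.02. BTN2 had 5375, 5504, 5429 and 6020, against 226 and 1085 in the 10-series, and CUR1 had 553, 570, 466 and 565, against 75.9 and 34.5 in the 10-series. The other genes among the 12 largest were the kinase gene RCK1 (3.48), whose signals of 0.6 and 1.5 in the 10-series lay under 16, the putative epimerase gene YNR071C (3.16), the cell wall mannoprotein gene HPF1 (2.96), the heat shock factor relative MGA1 (2.75), SDD1 (2.49), YNR014W (2.48) and the catalase gene CTT1 (2.44).

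By the same rule, the largest differences below the 10-series were those of NSR1, PHO89, ARO10, YOR302W and ARG1. NSR1, a nucleolin-like factor of ribosome assembly, had 177, 2.8, 2.4 and 2.6 in the 100-series, against 591 and 896 in the 10-series. Its difference was -4.48 (SE 0.91, adjusted p = 0.029), and 3 of its 4 signals in the 100-series lay under 16, where the size of a difference depends on the value added before the logarithm. PHO89, a sodium-dependent phosphate transporter, had 181, 199, 271 and 395, against 4878 and 5457 in the 10-series (difference -4.28, SE 0.25, adjusted p = 0.0016). ARO10, the decarboxylase that opens the breakdown of aromatic and branched-chain amino acids to alcohols, had 34.0, 30.9, 42.1 and 37.9, against 795 and 1028 in the 10-series (difference -4.14, SE 0.20, adjusted p = 0.00090). For both genes every array of the 100-series lay more than 10-fold below both arrays of the 10-series. YOR302W, the short reading frame in the leader of the CPA1 transcript, differed by -3.37 and ARG1, argininosuccinate synthetase, by -3.07, with 195, 75.3, 77.8 and 86.2 on the 100-series arrays, against 1115 and 826 in the 10-series. The remaining genes of the 12 were the ribosome assembly factors RPF2 (-2.86), KRR1 (-2.67) and NIP7 (-2.64), the ribosomal protein gene RPL36A (-2.85), the ribose phosphate isomerase gene RKI1 (-2.79), the alcohol dehydrogenase gene ADH2 (-2.72) and GCV1, a subunit of glycine decarboxylase (-2.66). KRR1, with 109, 4.8, 3.6 and 3.8 in the 100-series, against 196 and 177 in the 10-series, and NIP7, with 6.6 to 17.9, against 215 and 124, also had 3 of 4 signals under 16, and with 64 added in place of 16 their differences were -1.54 and -1.57. YOR302W, RKI1 and NIP7, and CUR1 above, lie in the range of probe set numbers where the treated A100 array had many low signals. All 4 were also called without that array. So were all 717 of the 720 calls that could be tested there, so this does not set the 4 genes apart.

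**Figure D2:**
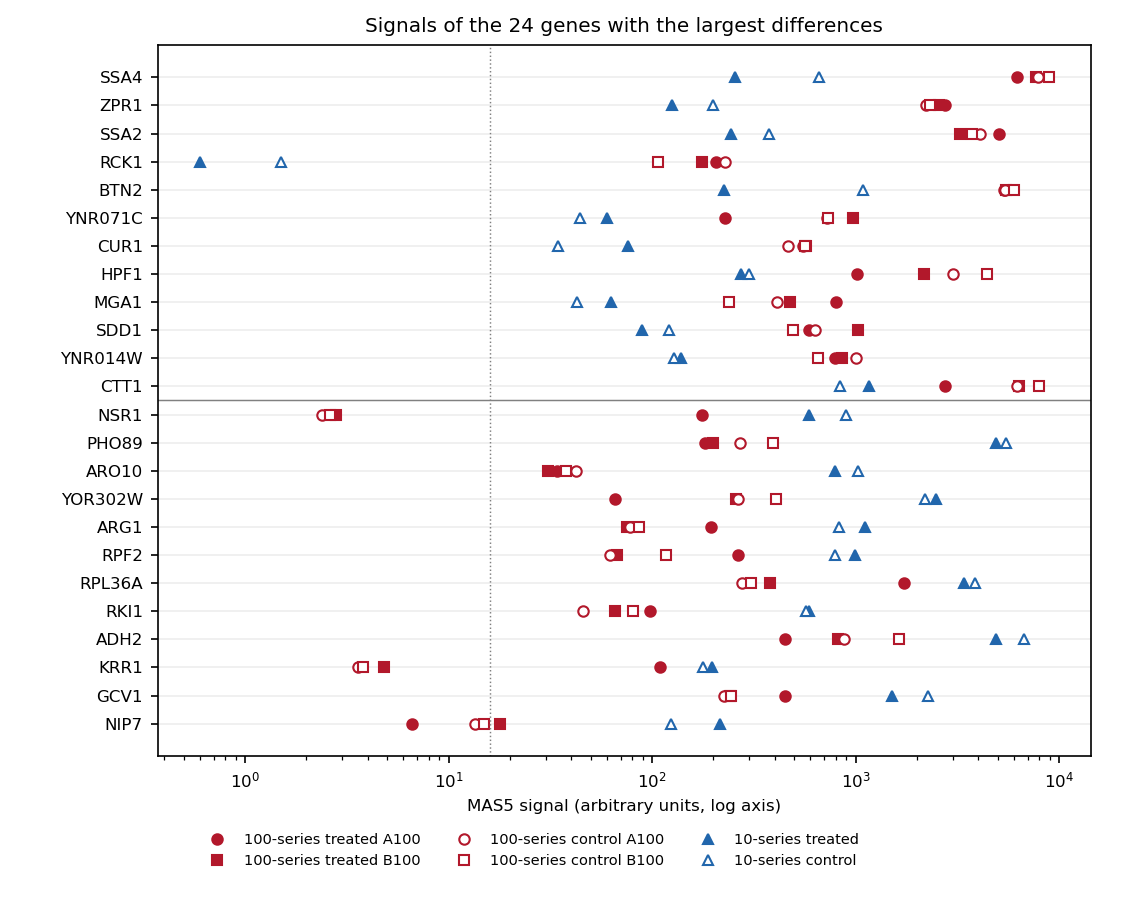
MAS5 signals on the 6 arrays (x axis, arbitrary units, log axis) of the 12 genes with the largest positive and the 12 with the largest negative difference among called genes whose groups do not overlap; the dotted line marks a signal of 16. SSA4 stands at 6207 to 8906 in the 100-series, against 255 and 661 in the 10-series, and PHO89 at 181 to 395, against 4878 and 5457.

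Genes for making ribosomes gave lower calls in the 100-series. Of the 93 tested ribosome biogenesis genes, which encode the factors that process ribosomal RNA and assemble the subunits in the nucleolus, 48 were called lower and 0 higher, where 5.61% of all genes were called each way. The median difference of the list was -1.27, against -0.0022 over all named genes. In 73 of the 93 (78.5%) every array of the 100-series lay below both arrays of the 10-series, against 20.3% of all genes. The median was -1.19 in the treated arm and -1.48 in the control arm. Without the treated A100 array 82 genes were called lower, with a median of -1.48, and without any other array the count was between 0 and 16.

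Among the 39 small-subunit factors 16 were called lower, and among the 51 large-subunit factors 31 were. RRP12, which takes part in export of both subunits, had 6.7, 22.3, 23.0 and 14.4 in the 100-series, against 143 and 129 in the 10-series, and DIM1, an 18S rRNA methylase, had 184, 48.7, 54.0 and 70.1, against 448 and 225. The treated A100 array had the highest signal of its series for DIM1 and the lowest for RRP12. RPF2, which brings the 5S rRNA particle into the large subunit, had 264, 66.9, 62.0 and 117 in the 100-series, against 994 and 789 in the 10-series. The export adaptor NMD3 had 497, 102, 53.2 and 99.2, against 823 and 739, and the shuttling factor ARX1 had 45.0, 3.2, 9.0 and 12.2, against 169 and 129. Their differences were -2.42 and -2.44, that of ARX1 with 3 of 4 signals of the 100-series under 16. The only member of the list with a positive value was the large-subunit factor NSA1, with 547, 296, 159 and 210 in the 100-series, against 370 and 148 in the 10-series (difference 0.20, adjusted p = 0.68), where the groups overlapped. Of the 3 tested proteins of the particles that guide pseudouridine formation, NHP2 was called lower (-1.30), and CBF5 (-1.53) and GAR1 (-1.43) did not pass the test.

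RNA polymerase I makes the large ribosomal RNA and polymerase III makes 5S and transfer RNA. Of the 34 tested genes for their subunits and factors 6 were called lower (17.6%, against 5.61% of all genes) and 0 higher, with a median of -0.39. The largest subunit gene of polymerase I, RPA190, had 207, 35.8, 28.0 and 50.8 in the 100-series, against 441 and 276 in the 10-series (difference -2.26, adjusted p = 0.046). RPA135, the second subunit, differed by -2.25, and RPA34 by -1.75. The groups did not overlap for any of the 3. The called genes of polymerase III were RPC37 (-1.18) and RPC34 (-1.16), and of the shared subunits RPC40 (-1.35). The initiation factors RRN3 (0.43) and TFC4 (0.66) had positive values and did not pass the test. With the treated A100 array left out, 15 genes of the list were called lower and 2 higher, and without any other array at most 2 were called.

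The ribosomal proteins themselves depended on a particular array. Of the 81 cytosolic ribosomal protein genes tested, 6 were called lower (7.41%, against 5.61% of all genes) and 0 higher, and the median difference was -0.95. In 17 of the 81 (21.0%) the groups did not overlap, near the 20.3% of all genes. The list medians on the arrays, as deviations from each gene's mean, were 0.975, -0.459, -0.946 and -0.847 in the 100-series, against 0.682 and 0.625 in the 10-series. The treated A100 array therefore lay above the 10-series and the other 3 arrays of the 100-series below it. Without the treated A100 array 72 of the 81 genes were called lower, with a median of -1.32, while without any other array at most 2 were. The median was -0.43 in the treated arm, which is also the value without the 10-series control, and -1.50 in the control arm, which is also the value without the 10-series treated array. RPL21B, for example, had 762, 990, 903 and 899 in the 100-series, against 5172 and 5051 in the 10-series, a difference of -2.51 (SE 0.20, adjusted p = 0.0036), and its groups lay far apart also with the treated A100 array. RPS7A had 3177, 305, 645 and 527, against 3382 and 3299 (difference -2.11, adjusted p = 0.13). RPL36A, RPL7B and RPS9A have close copies in the genome, and the suffixes of their probe sets mark probes that are shared or reduced in number. RPL9A, with 1131, 213, 188 and 197 in the 100-series, against 258 and 137 in the 10-series, had the highest value of the list (0.68, adjusted p = 0.46). The 69 ribosomal protein genes of the mitochondrion had a median of -0.05, with MRPL17 called higher (0.91) and MRPL37 called lower (-1.14). Of these, 4 were called each way without the treated A100 array, and without any other array at most 1 was called.

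Further genes for protein synthesis also gave lower calls. Of 45 aminoacyl-tRNA synthetases and translation factors, 8 were called lower (17.8%, against 5.61% of all genes) and 0 higher, with a median of -0.36. They were the synthetase genes KRS1 (-2.01), ILS1 (-1.66), CDC60 (-1.60), VAS1 (-1.10) and ALA1 (-1.06) and the factor genes TIF3 (-1.74), TIF35 (-0.95) and GCD1 (-0.93). KRS1, the lysyl-tRNA synthetase, had 536, 129, 115 and 124 in the 100-series, against 852 and 700 in the 10-series, so that the treated A100 array again lay nearest to the 10-series. Without that array 22 of the list were called lower and 3 higher, with a median of -0.65, while without the treated B100 array 2 were called lower and without any other array 0 were called by limma. The median was -0.64 without the 10-series treated array.

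Purine genes gave mostly lower calls, and pyrimidine genes were split. Of 19 purine genes 5 were called lower (26.3%) and 1 higher (5.26%), against 5.61% of all genes each way. Of 9 pyrimidine genes 2 were called lower and 2 higher (22.2% each way). ADE1, an enzyme of the purine pathway, had 673, 469, 208 and 435 in the 100-series, against 1508 and 1525 in the 10-series (difference -1.84), and ADE6 (-1.46) and ADE13 (-1.25) were lower beside it. ADE16, which closes the purine ring, was called higher, with 1954, 2459, 3050 and 2602, against 981 and 1126 in the 10-series (difference 1.23). Among pyrimidine genes the CTP synthase gene URA7 (-2.39) and FUR1, which salvages uracil (-1.83), were lower, and URA1 (0.79) and URA2 (0.81), of the synthesis pathway, were higher. The median of both groups together was -0.59, and -0.34 without the 10-series control. With the treated A100 array left out, 17 were called lower and 6 higher, but without the treated B100 array 2 were called lower, and without any other array 0 were called by limma.

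Genes for making amino acids gave only lower calls. Of 53 tested, 14 were called lower and 0 higher, and the median was -0.64. The groups did not overlap and the 100-series lay below in 31 (58.5%), against 20.3% of all genes. ILV5, an early enzyme of branched-chain amino acid synthesis, had 883, 420, 499 and 567 in the 100-series, against 2755 and 2325 in the 10-series (difference -2.12). ILV3 (-1.77), the aminotransferase gene BAT1 (-2.01), LEU1 (-1.28) and LEU9 (-1.54) were also called lower. CPA1, which makes carbamoyl phosphate for arginine, had 1038, 748, 603 and 1667, against 5390 and 5102 in the 10-series (difference -2.46), and ARO4, at the entry to aromatic amino acids, had 808, 232, 118 and 158, against 1164 and 1137 (difference -2.15). GLN1, glutamine synthetase, differed by -1.42. The activator of these genes, GCN4, had 4758, 4883, 5771 and 5684, against 5966 and 5723 in the 10-series, a difference of -0.15 (adjusted p = 0.60). GCN4 is controlled mainly at translation, which arrays do not read. LYS4 (0.78) and HIS4 (0.50) had positive values and did not pass the test. Without the treated A100 array 24 genes were called lower and 2 higher, and without any other array at most 4 were called.

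**Figure D3:**
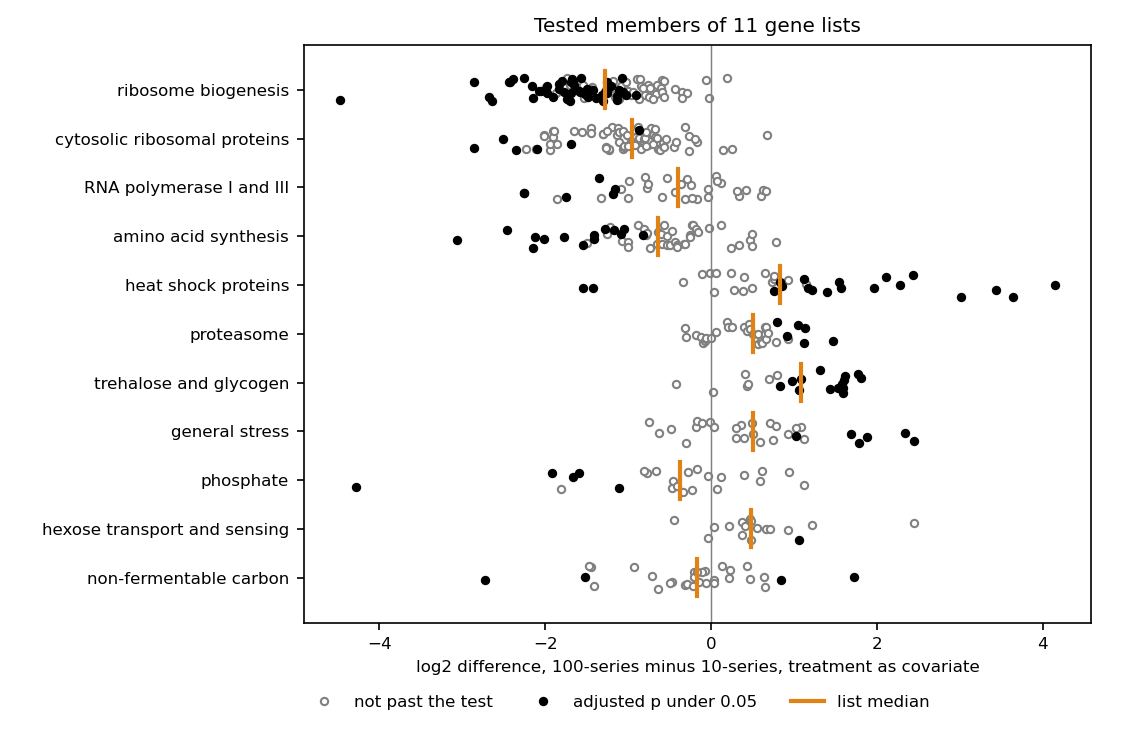
Log2 difference of every tested member of 11 gene lists (x axis, 100-series minus 10-series); filled points passed the test, open points did not, and orange lines are list medians. Ribosome biogenesis genes centre at -1.27 and trehalose and glycogen genes at 1.08, while genes for non-fermentable carbon spread around -0.17.

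Chaperone genes gave mostly higher calls in the 100-series. Of the 35 heat shock protein genes tested, 17 were called higher and 2 lower, with a median of 0.83. In 25 of them (71.4%) all arrays of the 100-series lay above both of the 10-series, against 20.5% of all genes. The treated A100 array did not stand apart here, with a list median of 0.176 as a deviation, against 0.244, 0.329 and 0.458 on the other 100-series arrays and -0.586 and -0.603 in the 10-series. Without it 23 were called higher and 2 lower. Without the treated B100 array 13 were called higher, and without any other array between 0 and 8 were.

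The cytosolic Hsp70 system gave 8 of the higher calls among 12 genes. Besides SSA4 and SSA2, the Hsp40 partner SIS1 had 6639, 4270, 6266 and 5708 in the 100-series, against 1073 and 1223 in the 10-series (difference 2.28, SE 0.23, adjusted p = 0.0059). APJ1, another Hsp40, differed by 1.97, the nucleotide exchange factor genes SSE2, FES1 and SSE1 by 1.56, 1.54 and 1.12, and the main Hsp40 gene YDJ1 by 1.18. A member of the ribosome-bound branch was lower. SSZ1, which rides on the ribosome and helps new chains fold, had 426, 276, 205 and 238, against 784 and 878 in the 10-series (difference -1.54, adjusted p = 0.023). Its partner ZUO1 had -0.11 (adjusted p = 0.86).

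Among the disaggregases and small heat shock proteins 5 of 8 were called higher. HSP104, which pulls proteins out of aggregates, had 5121, 5444, 5557 and 5085 in the 100-series, against 2263 and 1762 in the 10-series (difference 1.40). Its mitochondrial relative HSP78 had 2373, 2281, 2481 and 1591, against 469 and 315 in the 10-series (difference 2.44). HSP42, a small heat shock protein, differed by 0.85. HSP30, a membrane protein, had 10394, 12269, 13489 and 15435, against 11225 and 14725 in the 10-series, and its groups overlapped (difference -0.01, adjusted p = 0.97). HSP26 had a difference of 0.28 (adjusted p = 0.34). In mitochondria MDJ1, an Hsp40, had 1587, 1616, 1380 and 1295, against 295 and 359 in the 10-series (difference 2.11), and the chaperonin genes HSP60 (0.83) and HSP10 (0.76) were also called higher.

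Hsp90 genes gave fewer calls, 1 higher and 1 lower of 9. CPR6, a proline isomerase bound to Hsp90, was higher (1.21), and CNS1, an essential partner of Hsp90, was lower, with 61.5, 38.1, 32.4 and 28.7 in the 100-series, against 126 and 137 in the 10-series (difference -1.42). HSP82, the heat-inducible Hsp90 gene, had 1844, 7666, 8584 and 10049, against 2898 and 2430 in the 10-series. Its groups overlapped through the treated A100 array alone (difference 1.15, adjusted p = 0.23), and without that array it was called higher (1.70). Its probe set lies in the range of low signals on that array. The transcription factor gene HSF1 had 564, 988, 1000 and 1011, against 942 and 1288 (difference -0.34, adjusted p = 0.41).

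Some genes for folding and destruction of proteins elsewhere in the cell were called higher as well. Of 10 endoplasmic reticulum folding genes KAR2, the Hsp70 of that compartment, and ERO1, its oxidase, were called higher (20.0%). KAR2 had 7180, 5251, 6433 and 7460 in the 100-series, against 2209 and 1924 in the 10-series (difference 1.65), and ERO1 differed by 1.68. The other 8 genes lay between -0.49 and 0.77, and the list median was 0.02, or -0.13 without the treated A100 array. Without the treated A100 array 3 of the 10 were called higher and 1 lower, without the treated B100 array 2 higher, and without any other array 0 by limma. Of 35 proteasome genes 6 were called higher (17.1%, against 5.61% of all genes) and 0 lower, with a median of 0.51. In 22 of the 35 (62.9%) every array of the 100-series lay above both of the 10-series, against 20.5% of all genes. RPN4, the activator of proteasome genes, had 1526, 2063, 1768 and 1852, against 676 and 974 in the 10-series (difference 1.13), and the base subunit genes RPN1 and RPN2 differed by 1.47 and 1.14. PRE3 (1.05), SCL1 (0.91) and the polyubiquitin gene UBI4 (0.80) were the other calls. When the treated A100 array was left out 18 proteasome genes were called higher, and without any other array at most 1 was. In the vacuole, 5 of 25 genes of proteolysis and autophagy were called higher (20.0%). They were the protease genes APE1 (1.78) and PRB1 (1.51) and the autophagy genes ATG1 (1.37), ATG13 (1.34) and ATG7 (0.89). The list median was 0.11. Of these 25 genes 7 were called higher and 1 lower without the treated A100 array, 3 higher without the treated B100 array and 1 higher without the B100 control, and 0 were called by limma without any other array.

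**Figure D4:**
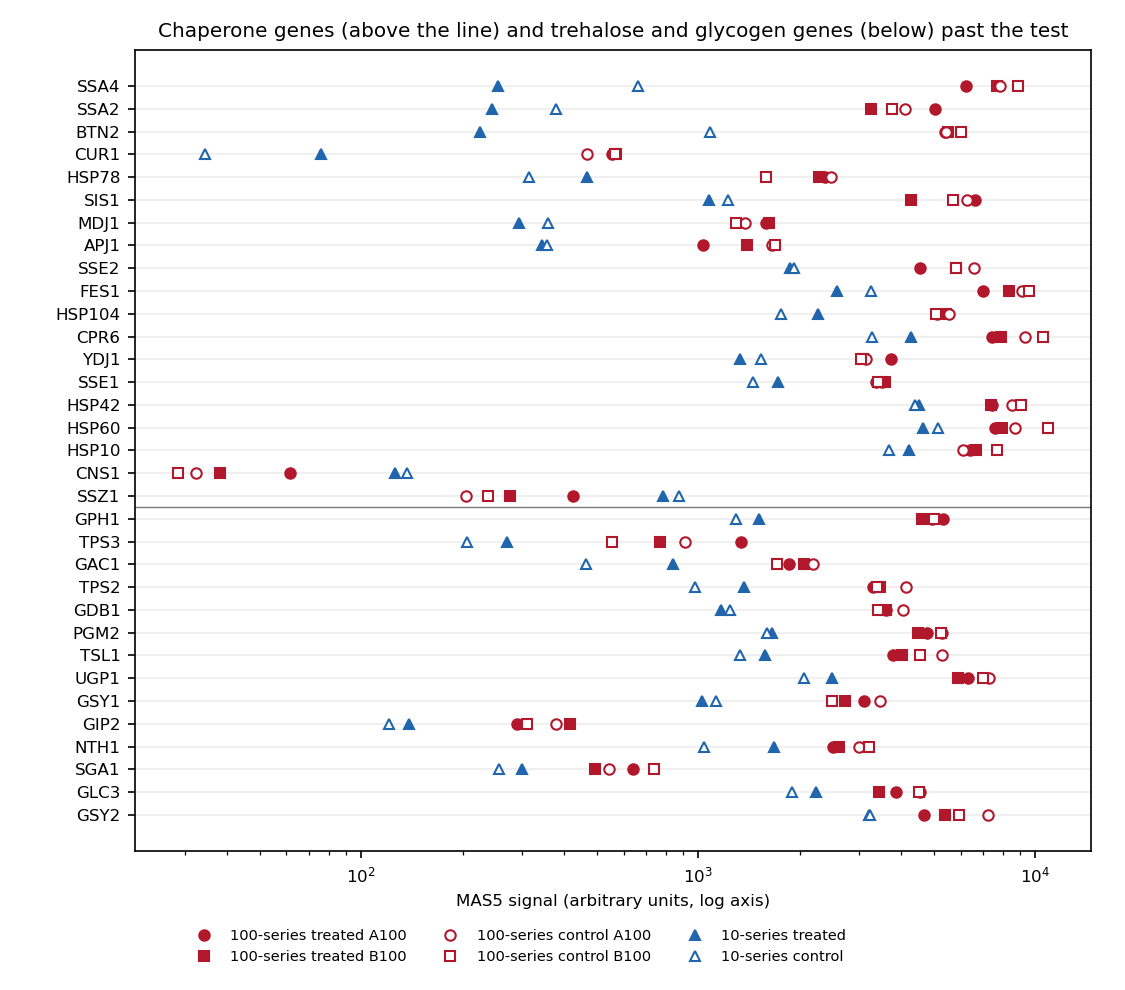
MAS5 signals on the 6 arrays (x axis, arbitrary units, log axis) of the 19 called chaperone genes and the 14 called trehalose and glycogen genes. The 100-series lies right of the 10-series for all but CNS1 and SSZ1, and GPH1, for example, stands at 4599 to 5303, against 1510 and 1297.

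With all arrays, reserve carbohydrate genes were the list with the largest share of calls in 1 direction. Without the treated A100 array the shares of cytosolic ribosomal protein and ribosome biogenesis genes called lower were larger. Of 21 trehalose and glycogen genes 14 were called higher (66.7%) and 0 lower, with a median of 1.08. Glycogen phosphorylase GPH1, which releases glucose units from glycogen, had 5303, 4599, 4937 and 5015 in the 100-series, against 1510 and 1297 in the 10-series (difference 1.81, SE 0.18, adjusted p = 0.0060). Enzymes of synthesis were higher as well: PGM2 (1.59) and UGP1 (1.54) make the glucose donor, GSY1 (1.43) and GSY2 (0.83) build the chain, and GLC3 (0.98) branches it. The debranching enzyme gene GDB1 (1.59), the phosphatase targeting genes GAC1 (1.61) and GIP2 (1.31) and the glucoamylase gene SGA1 (1.06) made up the 10 calls among 14 glycogen genes. PIG1 had the lowest value of the list (-0.42, adjusted p = 0.21).

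In trehalose metabolism TPS2, the phosphatase of the synthase complex, had 3307, 3457, 4123 and 3391 in the 100-series, against 1364 and 978 in the 10-series (difference 1.61). The regulatory subunit genes TPS3 (1.78) and TSL1 (1.58) were higher, as was NTH1 (1.08), the neutral trehalase that breaks trehalose down. The synthase gene TPS1 had 5070, 5706, 5733 and 5815, against 3912 and 4245 in the 10-series. All 4 arrays lay above both, but by 0.45, which did not pass the test (adjusted p = 0.13). Without the treated A100 array 16 genes of the list were called higher, without the treated B100 array 9, and without any other array between 0 and 3.

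Of 29 general stress genes 6 were called higher (20.7%, against 5.61% of all genes) and 0 lower, with a median of 0.51. The median was 0.36 without the 10-series control and 0.80 without the 10-series treated array. As a deviation, the list median was -0.247 on the treated A100 array and 0.252, 0.445 and 0.413 on the other 100-series arrays, against -0.380 and -0.448 in the 10-series. CTT1, the cytosolic catalase, had 2755, 6388, 6217 and 7949 in the 100-series, against 1162 and 836 in the 10-series. ALD3, an aldehyde dehydrogenase, differed by 2.34, PHM7 by 1.88, the dihydroxyacetone kinase gene DAK1 by 1.79, the aldose reductase gene GRE3 by 1.69 and RTN2 by 1.02. HSP12, a much-used marker of the general stress response and named here after its values were seen, had 10198, 12561, 12635 and 15274, against 11199 and 18068 in the 10-series, and its groups overlapped (difference -0.18, adjusted p = 0.57). DCS2 had 149 on the treated A100 array and 3402, 3474 and 3943 on the other 100-series arrays, against 3018 and 2573 in the 10-series, and its probe set lies in the same range of numbers as that of HSP82. The regulator genes MSN2 (0.79) and MSN4 (0.51) did not pass the test. Without the treated A100 array 13 genes of the list were called higher, and without any other array at most 2 were. Of 20 oxidative defence genes 4 were called higher (20.0%), namely OYE3 (2.30), GSH1 (1.21), FLR1 (1.14) and TRX2 (1.11). The multidrug exporter gene PDR5 was called lower (-1.28), a share of 5.0%. PDR5 had 1025, 751, 775 and 798 in the 100-series, against 1774 and 2337 in the 10-series. The oxidative defence list gave 8 higher and 2 lower calls without the treated A100 array and at most 1 call without any other array.

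Phosphate genes gave 5 lower (20.8%, against 5.61% of all genes) and 0 higher calls among 24. The median was -0.37, and -0.20 without the treated A100 array. The calls were in the uptake genes and their closest companions. Besides PHO89, the high-affinity transporter gene PHO84 had 852, 931, 1489 and 1457 in the 100-series, against 3807 and 3511 in the 10-series (difference -1.66, adjusted p = 0.014), and GIT1, which takes up glycerophosphoinositol, had 42.6, 37.7, 46.8 and 36.7, against 197 and 122 (difference -1.59). SPL2, a small protein that acts on low-affinity phosphate uptake, had 444, 506, 409 and 443, against 1482 and 2032 in the 10-series (difference -1.91), and PHM8 differed by -1.11. None of these overlapped between the series. The low-affinity transporter genes PHO90 (0.07) and PHO91 (0.59) did not pass the test. The secreted acid phosphatase gene PHO5 had 492, 580, 420 and 470, against 709 and 500 in the 10-series, and its groups overlapped (difference -0.28, adjusted p = 0.39). The regulators PHO81 (-0.67), PHO4 (-0.34, named after its values were seen) and PHO2 (1.12) did not pass the test either. With the treated A100 array left out, 9 phosphate genes were called lower and 2 higher, without the treated B100 array 4 lower, and without any other array at most 1.

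Carbon genes gave few calls. Of 17 hexose transport and sensing genes 1 was called higher (5.88%), near the 5.61% of all genes. It was the hexokinase gene HXK1, with 8696, 9138, 9571 and 9439 in the 100-series, against 3168 and 6152 in the 10-series (difference 1.06, adjusted p = 0.034). The median was 0.48, but 0.97 without the 10-series control and 0.14 without the 10-series treated array. HXT4, a transporter induced by low glucose, had 1927, 125, 170 and 99.0, against 36.6 and 32.7 in the 10-series. Its difference of 2.45 did not pass the test (adjusted p = 0.14), and without the treated A100 array it was 1.51 and passed. HXT7, a high-affinity transporter with a near-identical copy in HXT6, had 8019, 8304, 8437 and 8332, against 3126 and 8148 in the 10-series, so that the 10-series treated array was apart from the other 5. With the treated A100 array left out 5 genes of the list were called higher and 2 lower, and without any other array 0 were called by limma.

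Of 31 genes for non-fermentable carbon 2 were called higher and 2 lower (6.45% each way), near the 5.61% of all genes. The median of -0.17 turned to 0.19 without the treated A100 array and to 0.18 without the 10-series treated array. ADH2, which oxidises ethanol and is repressed by glucose, was the largest call, with 453, 822, 879 and 1642 in the 100-series, against 4925 and 6727 in the 10-series (difference -2.72, SE 0.35, adjusted p = 0.010). CIT3, a mitochondrial citrate and methylcitrate synthase, was lower (-1.51). The regulator gene CAT8, which drives gluconeogenic genes when glucose is gone, was higher, with 395, 691, 1217 and 827, against 254 and 171 in the 10-series (difference 1.72), and so was the mitochondrial aldehyde dehydrogenase gene ALD4 (0.85). MLS1, the malate synthase of the glyoxylate cycle, had 263 on the treated A100 array and 4120, 7220 and 10927 on the other 100-series arrays, against 4288 and 5894 in the 10-series (difference -0.71, adjusted p = 0.69), and 0.31 without that array. JEN1 (0.22), HAP4 (-0.21) and ADR1 (0.13) did not pass the test. Leaving out the treated A100 array gave 5 higher and 5 lower calls, and leaving out any other array at most 1 call.

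Respiration and glycolysis gave few calls. Of 15 tricarboxylic acid cycle genes 1 was called, LSC1 (-0.76), and the median was -0.04. Of 36 genes for respiratory complexes and the ATP synthase, the cytochrome c isoform genes were the 2 called, in opposite directions. These were 2.78% each way, under the 5.61% of all genes. CYC7, the isoform gene that is used more without oxygen and in stress, had 2846, 2859, 2785 and 3080 in the 100-series, against 600 and 574 in the 10-series (difference 2.27, SE 0.18, adjusted p = 0.0036). CYC1, the main isoform gene, had 2408, 3314, 2369 and 3421, against 5052 and 6150 in the 10-series (difference -0.97, adjusted p = 0.048). Of 15 hypoxic and anaerobic genes 0 were called by limma, with a median of 0.29, and ANB1, the hypoxic copy of a translation factor, had 1.38 (adjusted p = 0.23). Of 20 glycolysis and fermentation genes PFK1 was called higher (1.12), a share of 5.0%. The median of this list was 0.34, and 18 of the 20 values were positive. In 11 of the 20 (55.0%) every array of the 100-series lay above both of the 10-series, against 20.5% of all genes. Of 11 pentose phosphate pathway genes the isoform genes TKL2 (1.86), NQM1 (1.32) and SOL4 (1.11) were called higher (27.3%). RKI1 was lower (9.09%), with 98.1, 66.1, 45.7 and 80.4 in the 100-series, against 588 and 574 in the 10-series. When the treated A100 array was left out the pentose phosphate list gave 5 higher and 2 lower calls and the glycolysis list 3 higher, and without any other array each of the lists of this paragraph gave at most 1 call.

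Lipid, sulfur, nitrogen and metal genes gave single calls in both directions. The sterol synthesis genes ERG3 (-2.30), ERG11 (-1.55) and ERG5 (-1.41) and the fatty acid synthesis gene ACC1 (-1.77) were lower, and ERG28 was higher (1.65), among 29 genes. ACC1, the acetyl-CoA carboxylase, had 899, 887, 1743 and 1726 in the 100-series, against 3741 and 4938 in the 10-series. Of 26 genes for sulfate and methionine, MET5 (1.63), SUL2 (1.18) and MET28 (1.13) were higher and STR3 (-0.95) lower. Of 25 genes under nitrogen repression, UGA1 (1.58), CAR1 (1.57) and CAR2 (1.10), which break down GABA and arginine, were higher, and the peptide transporter gene PTR2 was lower, with 466, 633, 1040 and 747, against 2984 and 3632 in the 10-series (difference -2.22, adjusted p = 0.0080). Among 34 metal genes CTH1 (1.64), MRS4 (1.55) and CCC2 (1.13) were higher and ZAP1 (-1.36), CRS5 (-0.99) and VHT1 (-0.90) lower. These were 8.82% each way, against 5.61% of all genes. Of 16 vitamin genes SNZ1 (-1.79), SNO1 (-1.59) and BNA2 (-1.40) were lower (18.8%). Leaving out the treated A100 array gave 10 lower and 2 higher calls among the lipid genes, 8 higher and 1 lower among the sulfur genes, 3 higher and 3 lower among the nitrogen genes, 4 higher and 5 lower among the metal genes, and 5 lower among the vitamin genes. Leaving out any other array gave at most 2 calls in each of these lists.

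The G1 cyclin genes CLN1 and CLN2 were lower in the 100-series. CLN1 had 71.8, 28.9, 24.5 and 13.1 in the 100-series, against 168 and 173 in the 10-series (difference -2.01, adjusted p = 0.023), and CLN2 had 232, 104, 70.7 and 79.1, against 321 and 341 (difference -1.47, adjusted p = 0.048). FAR1, which inhibits the kinase bound to G1 cyclins, differed by -1.73. The G1 cyclin gene CLN3 (-0.45), the inhibitor gene SIC1 (0.37) and the B-type cyclin genes CLB1 (0.66), CLB3 (0.62), CLB4 (-0.12) and CLB5 (-0.13) did not pass. For CLN1, CLN2 and FAR1 the treated A100 array had the highest signal of the 100-series, nearest to the 10-series, and its part in the calls was not tested. All 3 were called without that array, as were all 717 of the 720 calls that could be tested there. None of the 3 was called without any other 100-series array, where most of the 720 calls were lost. Neither sets these genes apart from other calls. Of 10 daughter cell separation genes DSE3 was lower (-1.20). Of 28 cell wall genes PIR3 was higher (1.48) and the stress-induced glucan synthase gene GSC2 lower (-0.92). GPA1, the pheromone G protein subunit, was the only call among 16 mating-type genes (-0.85), and 0 of 4 histone and 0 of 6 meiosis genes were called by limma. The cell wall list gave 2 higher and 8 lower calls and the mating-type list 3 lower calls without the treated A100 array, and without any other array each gave at most 1.

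The series difference was next taken within each arm, with 2 arrays of the 100-series against 1 of the 10-series, which is assumed to vary like the pairs of the 100-series. In the treated arm, where the doses differ too, 3 probe sets were called higher and 2 lower (0.0719% in all), with 574 and 500 at an unadjusted p under 0.05. In the control arm 0 were called (0%), with 729 higher and 755 lower at an unadjusted p under 0.05 and a lowest adjusted p of 0.0589. Across the 6956 probe sets the differences of the arms, which share no array, correlated at r = 0.666 and had the same sign at 71.9%, which is given as a description. All 720 calls over both arms had the same sign in each arm. For the 718 whose groups did not overlap this follows from the lack of overlap, so it is no separate support. PHO89 differed by -4.57 in the treated arm and -3.99 in the control arm, SSA4 by 4.68 and 3.63, GPH1 by 1.70 and 1.93, and RPF2 by -2.73 and -2.98. In the control arm, which no compound touched, ARO10 had 42.1 and 37.9 in the 100-series, against 1028 in the 10-series.

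**Figure D5:**
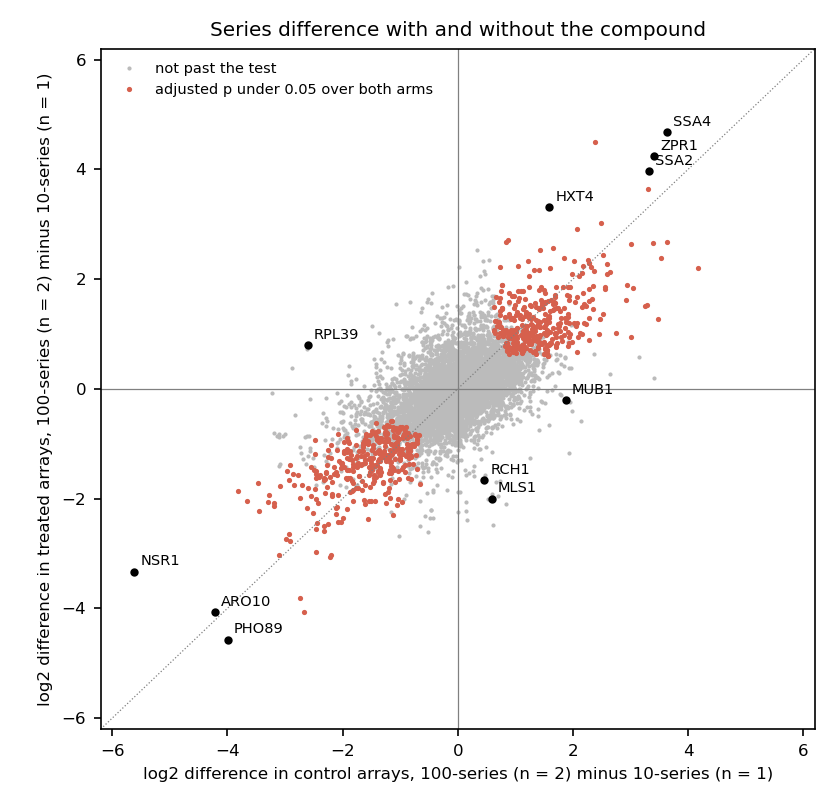
Difference of the series in the control arrays (x axis) and in the treated arrays (y axis), both in log2 units as 100-series minus 10-series, for each of the 6956 probe sets; the dotted line is equality and red points passed the test over both arms. SSA4 lies at 3.63 and 4.68 and PHO89 at -3.99 and -4.57, near the line, while RPL39 lies at -2.61 and 0.80.

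The difference between the arms was tested for every probe set, and 0 were called by limma (0%), with 145 positive and 89 negative at an unadjusted p under 0.05 and a lowest adjusted p of 0.966. Without the treated B100 array 136 were called positive and 97 negative, but the spread then came from the 2 controls of the 100-series alone, and the single arrays of the other groups, the treated A100 array among them, were assumed to vary like these. The 5 genes with the largest positive value at an unadjusted p under 0.05 were the ribosomal protein genes RPL39 (3.41), RPL24A (3.35) and RPS14B (3.16), the replication clamp gene POL30 (3.26) and YGR035C (2.63). RPL39 had 3786 on the treated A100 array and 837, 554 and 344 on the other 100-series arrays, against 1018 and 2743 in the 10-series. In all 5 genes the treated A100 array had the highest signal of the 100-series. The 5 largest negative values were those of YDR034C-A (-2.22), the calcium homeostasis gene RCH1 (-2.13), MUB1, a partner of a ubiquitin ligase (-2.08), MSC3 (-1.90) and GSM1 (-1.88). RCH1 had 71.1 and 99.7 on the treated arrays of the 100-series, against 303 on that of the 10-series, and 165 and 226 on the controls of the 100-series, against 136 on that of the 10-series. The adjusted p of each of these 10 genes was 0.966.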

How the data were processed

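RNA of 6 yeast samples was read on Affymetrix 1-colour arrays. The authors deposited linear intensity values, a MAS5 signal for each probe set, per the submitters' processing notes, which name neither version nor scaling target. The 2% trimmed mean signal lay between 499.828 and 499.864 on all arrays, so the values were not rescaled. Detection calls were not used here, and no depth applies to arrays, whose number limits the precision. The 60 control probe sets of 9335 were left out, then the 25% with the lowest mean log2 value, leaving 6956: 5670 with 1 gene name in the platform annotation, 282 with several and 1004 with none. Of a gene's probe sets, the brightest on average stood for it (5173 genes).

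limma 3.58.1 in R 4.3.3 fitted log2(signal + 16) to series and treatment over 6 arrays (3 residual degrees of freedom, variance trend, Benjamini-Hochberg adjustment over 6956 probe sets). Fold changes on this scale understate differences of low signals. Differences within an arm and between arms came from a fit with 4 group means (2 residual degrees of freedom). The script was tested on simulated data. Lists are described by counts and medians, without a test of the list. The gene lists, the comparison and the naming rule were chosen with earlier results of these data known. Named were the 12 largest differences each way among called genes whose groups did not overlap, and of each list, any called member, up to 4 of each subgroup with the largest differences, up to 2 of the opposite sign, and any member of lists of at most 15. SSA4 and PHO89 were named in any case. Members with values that fall outside the rule were added after the values were seen: SSA1, HSP12, HSP26, TPS1, GCN4 and PHO4.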

Additional observations from a re-analysis of the deposited data

Results flagged for a closer look

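Some results lay in opposite directions in the arms, with both treated arrays of the 100-series on 1 side of the treated array of the 10-series and both controls of the 100-series on the other side of its control. These differences were not tested beyond the fit between the arms, in which none passed (adjusted p of 0.966 or more). Of the 5173 named genes 588 (11.4%) had this pattern. The value given is the treated-arm difference minus the control-arm difference, in log2 units. It was -0.275 for the median of the daughter cell separation list. Among genes named above it was -2.59 for MLS1, -2.13 for RCH1, -1.88 for GSM1, -1.18 for RRN3, -0.71 for HAP4, 1.12 for HXT6 and 2.63 for YGR035C. Of these, RCH1, GSM1 and YGR035C had been named for their large differences between the arms. MLS1 had 263 and 4120 on the treated arrays of the 100-series, against 4288 on that of the 10-series, and 7220 and 10927 on its controls, against 5894. The groups hold 1 or 2 arrays, too few for a search for outlying arrays within a group.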

How the results depend on the processing

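The direction of all 720 calls was the same under scaling to a common median, quantile normalization, both pseudocounts (1 and 64), both filters, variance without a trend, the array label as a block and no treatment covariate, as far as the probe sets were still tested. The filters, the variance, the block and the covariate leave a difference itself unchanged. No pseudocount can reverse groups that do not overlap. Against 360 higher and 360 lower calls, no filter gave 246 and 233, of which 429 were shared calls, a threshold of 0.10 gave 695 and 744, and leaving out both A100 arrays, an alternative chosen after seeing the data, gave 611 and 915. The difference of A100 from B100 in the treated arrays correlated with that in the controls at r = -0.071. The treated A100 array stood apart from its series, so this value cannot show whether the array label paired samples. With the label as a fixed replicate block 264 and 283 were called, and as a random replicate block (estimated correlation -0.17) 613 and 629. In the treated arm, with 3 higher and 2 lower, no filter gave 0 and 0, a threshold of 0.10 gave 17 and 9, and a pseudocount of 64, leaving out probe sets numbered 7600 to 8500, or leaving out those with a suffix each gave 4 lower. In the control arm, with 0 calls, scaling to a common median gave 6 higher and 3 lower, a pseudocount of 64 gave 2 and 3, leaving out numbers 7600 to 8500 gave 2 and 2, leaving out suffixes gave 3 and 2, and a threshold of 0.10 gave 103 and 39. Leaving out 1 array in turn gave 0 to 897 higher and 0 to 1131 lower over both arms, 0 to 335 and 0 to 500 in the treated arm, 0 to 670 and 0 to 772 in the control arm, and 0 to 136 and 0 to 97 for the difference between arms, groups left with 1 array being assumed to vary like the others. The heat shock median ranged from 0.739 to 1.01 over these fits, phosphate from -0.477 to -0.198, hexose transport from 0.144 to 0.965, trehalose and glycogen from 0.964 to 1.37, general stress from 0.363 to 0.797, the proteasome from 0.349 to 0.682, and non-fermentable carbon from -0.527 to 0.187. Scaling to a common median moved the heat shock median to 0.932 and the phosphate median to -0.273, leaving out the lowest 50% moved that of RNA polymerases I and III to -0.675, and leaving out both A100 arrays moved that of phosphate to -0.236. Of the 217 genes named, 25 had a value of the other sign, 49 such values in all, and none of these genes was called with all arrays or in those fits. The causes were not tested.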
